A study of Mus musculus with 12 samples.

Results

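The 7 genes described here, Myh11, Mylk, Limch1, Rgs4, Rgs5, Npr3 and Eln, encode proteins of contraction, of receptor signalling in vessel wall cells and of elastic matrix. They were chosen by name from the genes that the authors' deposited table lists as higher after Prmt5 removal in mouse embryonic fibroblasts (MEF), so their ratios in MEF are a description, with no test. They are 7 of the 111 genes listed in MEF, and 3 of them are among the 2415 gene names listed in neural progenitor cells (NPC); either table lists 2477 names in all. Both cell types carried the genotype labelled Prmt5 F/FER on a mixed C57BL/6 X 129S1/SvlmJ background. The labels do not say what drives the ER element that makes the deletion depend on 4-hydroxytamoxifen (4-OHT). There were 12 libraries in 4 groups of 3: MEF with 50 nM 4-OHT, MEF with ethanol, NPC with 50 nM 4-OHT and NPC with ethanol, each exposed for 24 h before splitting. MEF were primary passage 1 cultures grown to confluence and NPC were cortical neurospheres grown with EGF and FGF, both from E14.5 embryos. Ethanol controls carry the same conditional allele, and no group received 4-OHT without that allele, so 4-OHT and loss of Prmt5 cannot be told apart.

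Smooth muscle cells and pericytes, together called mural cells, wrap blood vessels and set their width. They contract when myosin light chain kinase phosphorylates the regulatory light chain of myosin II, and hormones that act through G protein-coupled receptors tune this response. RGS proteins shorten such signals by speeding GTP hydrolysis on G protein alpha subunits, natriuretic peptides relax the vessel wall through cGMP, and elastin lets the wall recoil. Cultured fibroblasts also express many contractile and matrix genes, so a single gene of these pathways does not mark a mural cell.

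Expression was deposited as 1 RPKM value per arm (reads scaled to transcript length and library size), so no spread between the 3 libraries of an arm can be given. The depth behind each value is unknown. All genes in the tables have an unadjusted Cuffdiff p under 0.05 and a ratio beyond 1.5-fold, and levels of unlisted genes are not in them. Prmt5, the deleted gene, was at 3.76 RPKM with 4-OHT and 20.96 RPKM with ethanol in MEF, and at 4.92 RPKM with 4-OHT and 33.4 RPKM with ethanol in NPC. Because unlisted genes have no level, the labelled cell types could not be checked against their markers: 0 of 14 fibroblast markers were listed in MEF, and 1 of 13 progenitor markers, Hes5, in NPC.

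The Rgs4 and Rgs5 genes are neighbors on chromosome 1, with no protein-coding RefSeq gene between them. Rgs5 lies on the plus strand and Rgs4 on the minus strand, so they face each other and start at opposite ends of the pair. Their upstream sequences are shown because both genes were listed as higher in MEF while only Rgs4 was listed in NPC, and that of Mylk because it was listed in both. Each is the 250 bases before the transcription start in RefSeq (build GRCm38.p6), 5′ to 3′ on the gene's strand. Capitals mark TATAAA, a core promoter element, in this exact spelling only, and CATTCC, the MCAT element bound by TEAD factors, on either strand. The windows are chr1:169747643-169747892 (minus strand) for Rgs4, chr1:169655251-169655500 (plus strand) for Rgs5 and chr16:34784700-34784949 (plus strand) for Mylk.
Rgs4: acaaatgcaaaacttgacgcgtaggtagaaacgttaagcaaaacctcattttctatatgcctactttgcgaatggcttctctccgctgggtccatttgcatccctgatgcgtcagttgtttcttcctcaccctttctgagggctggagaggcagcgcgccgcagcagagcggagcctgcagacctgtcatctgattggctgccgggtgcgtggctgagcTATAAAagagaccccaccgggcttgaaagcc
Rgs5: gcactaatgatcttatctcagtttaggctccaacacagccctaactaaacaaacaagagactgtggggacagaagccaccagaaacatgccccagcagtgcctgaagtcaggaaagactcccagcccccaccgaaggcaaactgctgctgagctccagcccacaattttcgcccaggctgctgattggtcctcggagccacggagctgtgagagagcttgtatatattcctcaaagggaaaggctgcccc
Mylk: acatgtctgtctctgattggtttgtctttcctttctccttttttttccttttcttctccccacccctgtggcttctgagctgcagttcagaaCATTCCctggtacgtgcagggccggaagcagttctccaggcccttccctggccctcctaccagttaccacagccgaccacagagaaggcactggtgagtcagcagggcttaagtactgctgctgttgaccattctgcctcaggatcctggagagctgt

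The Rgs4 window has TATAAA from 31 to 26 bases before the start, and the Rgs5 window lacks this exact spelling. Near its end the Rgs5 window reads tatatat, and such variants were not searched, so no difference in this element is read from the pair. The Mylk window has CATTCC from 158 to 153 bases before the start. RefSeq gave 7 such windows for 5 of the genes, 3 of them for Limch1, and Myh11 and Eln were not matched. The CArG box, the site of serum response factor in many smooth muscle promoters, was in 0 of the 7 windows, against 1.47% of 32851 windows of all genes. CATTCC was in 1 of 7 windows against 12.6% of all, and TATAAA in 2 of 7 against 12.4%. The E-box CANNTG, which was not marked with capitals, was in 4 of 7 windows against 66.2% of all. These letter matches describe the sequence only, and enhancers and introns were not searched.

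Myh11, Mylk and Limch1, the contractile genes among the 7, were higher with 4-OHT in MEF, which the choice of the genes fixes. Of the 26 other genes on the smooth muscle contractile list, 0 were listed in MEF. Only 0.251% of RefSeq protein-coding genes were listed as higher there, so this count is not read as a result about the list. Myh11, the smooth muscle myosin heavy chain, was at 17.2 RPKM with 4-OHT and 8.25 RPKM with ethanol. This is a log2 ratio of 1.06, and the Cuffdiff p in the authors' deposited table, 0.000901, is the third smallest of the 111. Mylk, the myosin light chain kinase, was at 6.59 RPKM with 4-OHT and 4.04 RPKM with ethanol, a log2 ratio of 0.71. Limch1, an actomyosin-binding protein that activates non-muscle myosin II in human cells, was at 10.1 RPKM with 4-OHT and 6.28 RPKM with ethanol, a log2 ratio of 0.69. Mylk and Limch1 lie close to the edge of the table: they rank 53 and 55 of the 56 higher genes by ratio. Their p-values in the authors' deposited table are 0.0363 and 0.0403, where the largest listed is 0.0492 and the smallest listed rise is 1.57-fold. Genes just outside that edge are not in the table.

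**Figure D1:**
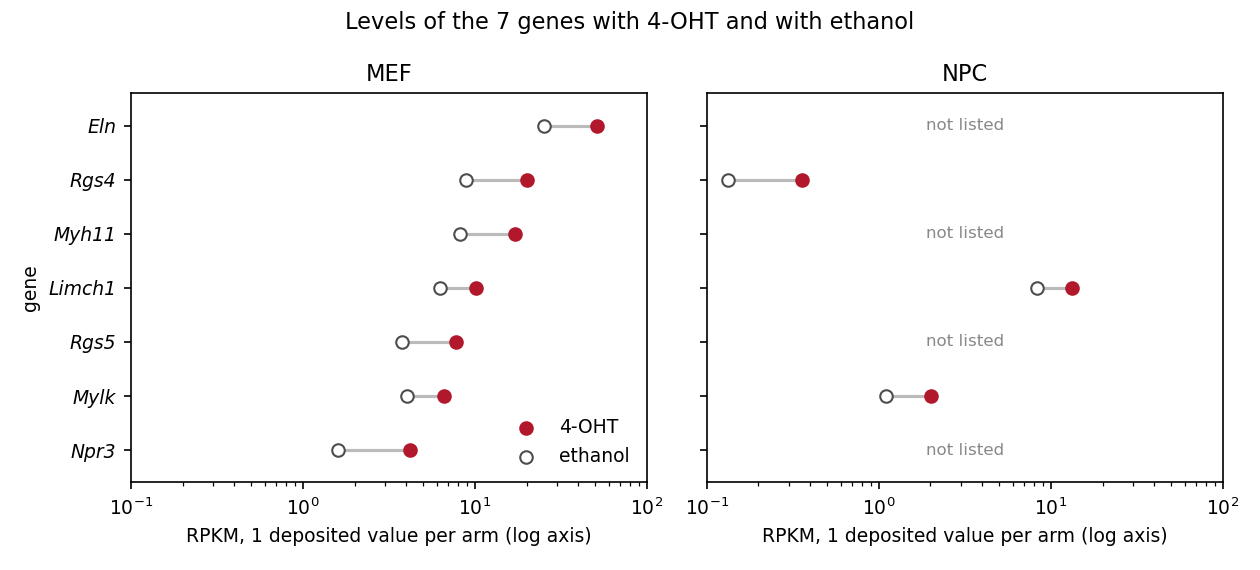
Deposited RPKM of each of the 7 genes on a log axis in MEF (left) and NPC (right); filled points are the 4-OHT arm, open points the ethanol arm, and a line joins the arms. In MEF all filled points lie right of the open ones, from Npr3 at 4.17 and 1.61 RPKM to Eln at 51.1 and 25.3 RPKM, while 4 genes are not listed in NPC.

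Both RGS genes were higher with 4-OHT in MEF, at ratios of 2.25 for Rgs4 and 2.06 for Rgs5. Rgs4, which acts on Gi and Gq alpha subunits, was at 20.1 RPKM with 4-OHT and 8.90 RPKM with ethanol. Its log2 ratio was 1.17, and its p of 0.000725 in the authors' deposited table is the smallest after Prmt5. Rgs5, a widely used pericyte marker of the same subfamily, was at 7.73 RPKM with 4-OHT and 3.76 RPKM with ethanol, a log2 ratio of 1.04 (p = 0.0158 in the authors' deposited table). The level of Rgs4 was 2.59 times that of Rgs5 with 4-OHT and 2.37 times with ethanol, so the order of the pair was the same in both arms. Without replicate values the ratios of the pair could not be tested against each other.

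Npr3, the receptor that clears natriuretic peptides, had the lowest level and the largest ratio. It was at 4.17 RPKM with 4-OHT and 1.61 RPKM with ethanol. The log2 ratio of 1.37 is the first among the 43 higher MEF genes with at least 1 RPKM in an arm, and number 12 of all 56. With 1 RPKM added to both arms it was 0.99, below the 1.09 of Rgs4. The p of Npr3 in the authors' deposited table is 0.00158. Eln, which encodes the elastin precursor, was at the other end of the range of levels, with 51.1 RPKM with 4-OHT and 25.3 RPKM with ethanol. Its log2 ratio was 1.01, and its p in the authors' deposited table was 0.0137. By level with 4-OHT it is the second of the 56 higher genes.

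As a group the 7 genes had ratios from 1.61-fold to 2.59-fold in MEF, with a median log2 ratio of 1.04, against 1.00 for the 49 other higher genes. Their levels had a median of 10.1 RPKM with 4-OHT and 6.28 RPKM with ethanol, against 2.76 and 1.38 RPKM for the others. The order of levels with 4-OHT was Eln, Rgs4, Myh11, Limch1, Rgs5, Mylk and Npr3. With ethanol it was the same except that Mylk stood above Rgs5. Neighbors in this order could not be compared beyond their spread, since no spread is given. Myh11, Rgs4 and Npr3 are 3 of the 9 higher MEF genes with a p under 0.01 in the authors' deposited table. Counting all 55341 gene names of the GENCODE annotation as tested, none of the 7 is sure to have an adjusted p under 0.05 in MEF. All 7 were listed as higher there, against 0.251% of 21900 RefSeq protein-coding genes, which the choice of the genes fixes.

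**Figure D2:**
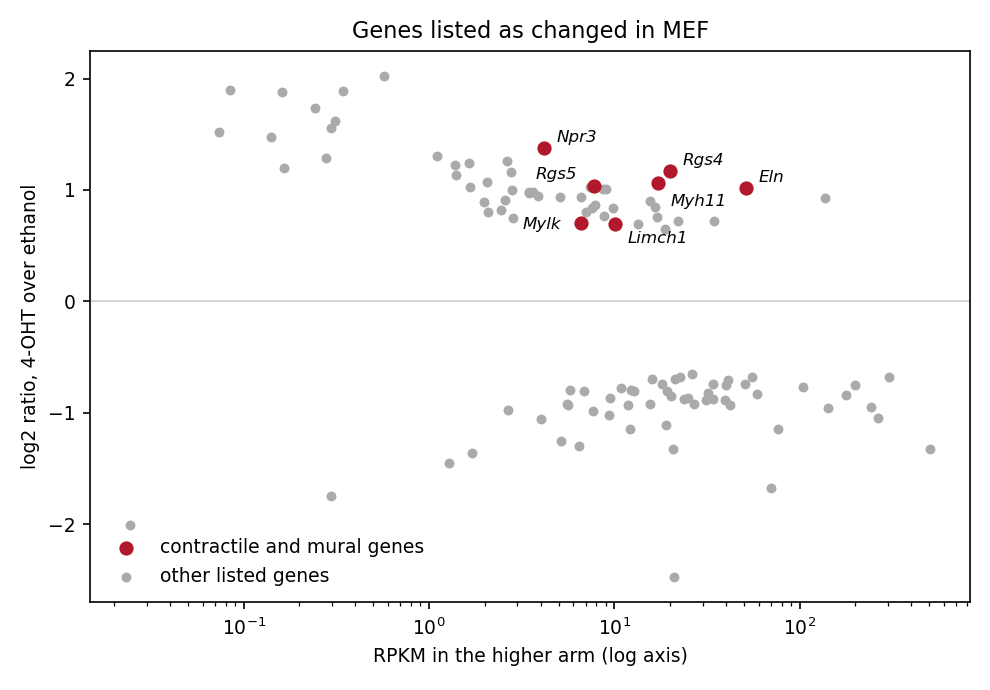
Log2 ratio of 4-OHT over ethanol against RPKM in the higher arm (log axis) for the genes listed in MEF, without 2 genes at 0 RPKM with ethanol. The 7 genes (red) lie between log2 ratios of 0.69 and 1.37, among the other higher genes (grey) and mostly toward the higher levels.

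In NPC 3 of the 7 genes were listed, all higher with 4-OHT. The genes were chosen for their rises in MEF, but with earlier results of both tables known, so these values too are a description. Limch1 was at 13.2 RPKM with 4-OHT and 8.32 RPKM with ethanol in NPC. The log2 ratio of 0.67 stands beside 0.69 in MEF. Mylk was at 2.001 RPKM with 4-OHT and 1.11 RPKM with ethanol in NPC, a log2 ratio of 0.85 beside 0.71 in MEF. Rgs4 was at 0.358 RPKM with 4-OHT and 0.132 RPKM with ethanol in NPC, a log2 ratio of 1.44 beside 1.17 in MEF. Limch1 had similar levels in both tables, whereas Rgs4 was far lower in NPC than in MEF; the tables were normalized separately. The p-values in the authors' deposited table are 8.99e-07 for Limch1, 1.13e-06 for Mylk and 0.000122 for Rgs4. Upper bounds of their Benjamini-Hochberg adjusted Cuffdiff p over all 55341 gene names are 6.14e-05, 7.52e-05 and 0.00462. With 1 RPKM added to both arms the log2 ratios of Rgs4 and Mylk in NPC were 0.26 and 0.51, since both genes were low there. Myh11, Rgs5, Npr3 and Eln are not listed in NPC, so each missed one of the listing limits or was not tested there, and its level is unknown.

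This share of 3 in 7, or 42.9%, compares with 6.07% of RefSeq protein-coding genes listed as higher in NPC. The nearer comparison is with the 49 other genes that were higher in MEF, of which 12, or 24.5%, were listed as higher in NPC, 3 as lower and 34 not at all. With so few genes, a single gene more or fewer moves this share widely. The 3 genes had a median log2 ratio of 0.85 in NPC, against 1.00 for all other higher NPC genes. By ratio they ranked 344 (Rgs4), 875 (Mylk) and 1185 (Limch1) of 1367 higher genes.

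**Figure D3:**
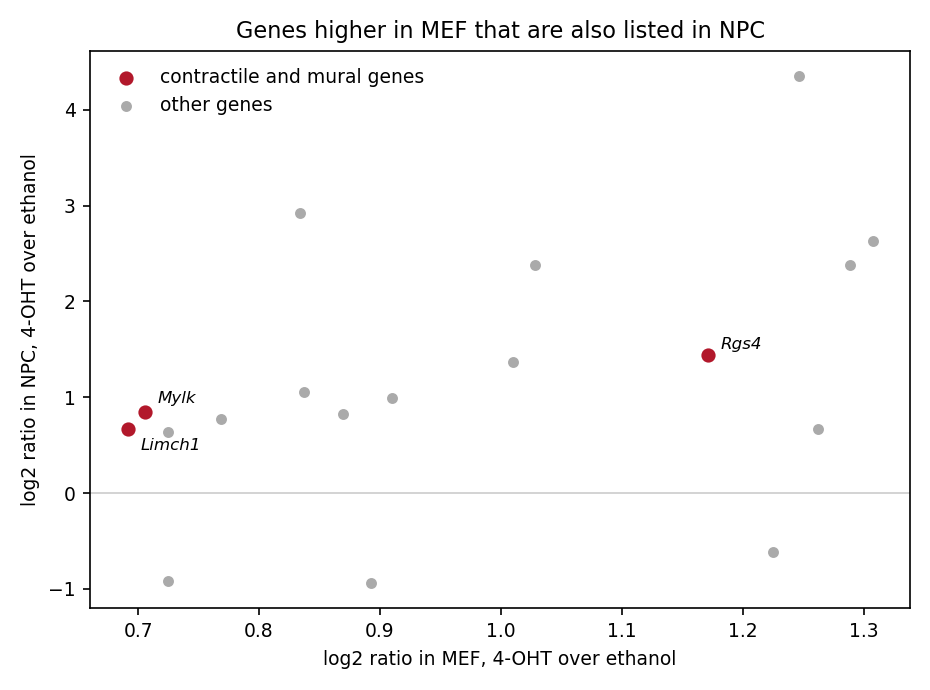
Log2 ratio of 4-OHT over ethanol in NPC against that in MEF for the 18 genes that were higher in MEF and are listed in NPC. Limch1, Mylk and Rgs4 (red) lie at 0.67, 0.85 and 1.44 in NPC, and 3 of the 15 other genes (grey) lie below 0.

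The genes nearest to each of the 7 by their deposited levels were found by the distance between log2 RPKM values. Genes listed in MEF alone were compared with 59 others listed in MEF alone, over 2 arms, and genes in both tables with 48 others in both, over 4 arms. Rgs5 was closest to Arsi, an arylsulfatase gene (7.41 RPKM with 4-OHT and 3.63 with ethanol in MEF, distance 0.079). Myh11 was closest to Itga8, an integrin chain of smooth muscle and mesangial cells (15.5 RPKM with 4-OHT and 8.28 with ethanol, distance 0.15), and Npr3 to Ptprq, a receptor phosphatase gene (distance 0.28). Over 4 arms Mylk was closest to Kank4 (distance 0.53) and Limch1 to the Notch ligand gene Jag1 (distance 0.55). Jag1 was at 8.78 RPKM with 4-OHT and 5.15 RPKM with ethanol in MEF, and at 11.2 RPKM with 4-OHT and 6.53 RPKM with ethanol in NPC. The genes nearest to Eln and Rgs4 under this rule, Fkbp11 and Prelp, stood at distances of 1.29 and 2.43, and each was lower with 4-OHT in one table. Over the MEF arms alone and among 108 genes listed there, a choice made after seeing the data, the gene nearest to Eln was Prelp (34.7 RPKM with 4-OHT and 21.0 with ethanol, distance 0.62) and that nearest to Rgs4 was Myh11 (distance 0.25). These distances describe few values and depend on level as much as on change.

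Few further genes of the pathways around the 7 genes were listed in MEF. Of 115 further genes on lists of smooth muscle contraction, pericytes, RGS proteins, natriuretic peptide and cGMP signalling, elastic fibers and myosin II chains, 1 was listed in MEF, as higher, which is 0.870% against the 0.251% of protein-coding genes given above. This was Myh2, a skeletal muscle myosin heavy chain, at 2.04 RPKM with 4-OHT and 0.970 RPKM with ethanol. The defining smooth muscle genes Acta2, Tagln, Cnn1 and Smtn and the pericyte genes Pdgfrb and Cspg4 are not listed in MEF. Of the marker lists of endothelial, striated muscle and immune cells, with 15, 17 and 13 genes, 0 were listed in MEF. Myh2 was counted with the myosin II chains and is not on the striated muscle list. Beside the 0.251% of protein-coding genes, these counts of 0 are not read as a result. A larger number of expressing cells and more RNA of these genes per cell cannot be told apart in such bulk libraries.

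More of these genes were listed in NPC. Of the same 115 genes, 15 were higher and 4 lower there, which is 13.0% and 3.48%, against 6.07% and 4.56% of RefSeq protein-coding genes. Their median log2 ratio was 0.80, against 0.66 for all listed NPC genes. Both medians mix higher and lower genes, so they follow the share that was higher and do not compare the size of change. For 15 of the 19 an adjusted Cuffdiff p under 0.05 over all gene names was certain. It was not certain for Rgs6, Myh15, Efemp1 and Loxl4. No test of these lists was made.

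Among contractile genes in NPC, all 3 that were listed were higher, of 28: Mylk, Myl9 and Mkl2. Mylk was chosen for its rise in MEF. Without Myh11 and Mylk, 2 of 26 genes were listed as higher, beside 6.07% of RefSeq protein-coding genes. With so few genes this is not read as a result about the list. Myl9, the regulatory light chain that MLCK phosphorylates, was at 5.90 RPKM with 4-OHT and 3.61 RPKM with ethanol. Mkl2, a coactivator of serum response factor, was at 9.03 RPKM with 4-OHT and 5.19 RPKM with ethanol. The myosin II heavy chains went both ways. Myh10, the non-muscle IIB chain, was at 25.4 RPKM with 4-OHT and 39.4 RPKM with ethanol, whereas Myh14, the non-muscle IIC chain, was at 2.27 RPKM with 4-OHT and 1.18 RPKM with ethanol. Myh15 had a log2 ratio of 0.70 at 0.187 RPKM with 4-OHT. Myh11 and the non-muscle IIA chain Myh9 are not listed in NPC.

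The RGS family had 5 listed members of 21 in NPC, of which 4 were higher, Rgs4 among them. Without Rgs4 and Rgs5, 4 of 19 were listed, 3 of them as higher. Rgs16 was at 8.50 RPKM with 4-OHT and 2.99 RPKM with ethanol, and Rgs8 at 0.548 RPKM with 4-OHT and 0.0959 RPKM with ethanol, a log2 ratio of 2.52. Rgs6 had a log2 ratio of 0.99 at 0.175 RPKM with 4-OHT. Rgs19 was the lower one, at 8.24 RPKM with 4-OHT and 13.1 RPKM with ethanol. On the pericyte list, Notch3, a Notch receptor of mural cells, was at 10.5 RPKM with 4-OHT and 6.52 RPKM with ethanol. Endothelial markers in NPC were limited to 2 of 15, Flt1 and Tek, at 0.118 and 0.140 RPKM with 4-OHT and 0.0658 and 0.0804 RPKM with ethanol. The other marker lists held Cd14 and H2-Ab1 of 13 immune genes, at 1.12 and 0.908 RPKM with 4-OHT and 0.569 and 0.325 RPKM with ethanol, Ryr2 of 17 striated muscle genes, at 0.307 RPKM with 4-OHT and 0.111 RPKM with ethanol, and Postn of 14 fibroblast genes, at 0.396 RPKM with 4-OHT and 0.214 RPKM with ethanol. These markers were all higher with 4-OHT. Of RefSeq protein-coding genes, 6.07% were listed as higher in NPC and 4.56% as lower. Upper bounds of the adjusted Cuffdiff p over all gene names were 0.625 for Flt1, 0.958 for Tek, 0.216 for Postn and 0.063 for Cd14. For Ryr2 and H2-Ab1 these bounds were 2.38e-07 and 0.00502. Hes5, a Notch effector and the only listed gene of 13 progenitor markers, was at 4.77 RPKM with 4-OHT and 15.8 RPKM with ethanol. The part of the marker genes in the listing of the contractile and mural genes was not tested. A change in the mix of cell types was not tested either.

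For natriuretic peptides, MEF and NPC listed different receptors. Such a lack of overlap was common, since 34 of the 49 other genes higher in MEF were not listed in NPC. It is therefore not read as a result about these receptors. Npr3 was listed in MEF alone, while NPC listed the receptors with guanylyl cyclase activity. Npr1 was at 2.75 RPKM with 4-OHT and 1.81 RPKM with ethanol, and Npr2 at 2.57 RPKM with 4-OHT and 1.43 RPKM with ethanol. Gucy1a3, a subunit of the soluble guanylyl cyclase that makes cGMP in response to nitric oxide, was at 2.91 RPKM with 4-OHT and 1.53 RPKM with ethanol. Whether the cell types differ for these genes was not tested, because the other arm pair of each is not listed.

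For elastic fibers, Eln was the one gene of 23 listed in MEF, and NPC listed 6 others. NPC listed 2415 gene names against 111 in MEF, and 34 of the 49 other genes higher in MEF were likewise not listed in NPC. Fbln5, which helps elastin assemble on cells, was at 0.888 RPKM with 4-OHT and 0.174 RPKM with ethanol, a log2 ratio of 2.35. The microfibril gene Mfap2 was at 9.50 RPKM with 4-OHT and 5.50 RPKM with ethanol. Efemp1 and Loxl4 had log2 ratios of 1.08 and 1.06 at 0.394 and 0.153 RPKM with 4-OHT. Fbln1 and Ltbp4 were lower: Fbln1 was at 9.44 RPKM with 4-OHT and 16.4 RPKM with ethanol, and Ltbp4 at 1.62 RPKM with 4-OHT and 3.13 RPKM with ethanol.

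**Figure D4:**
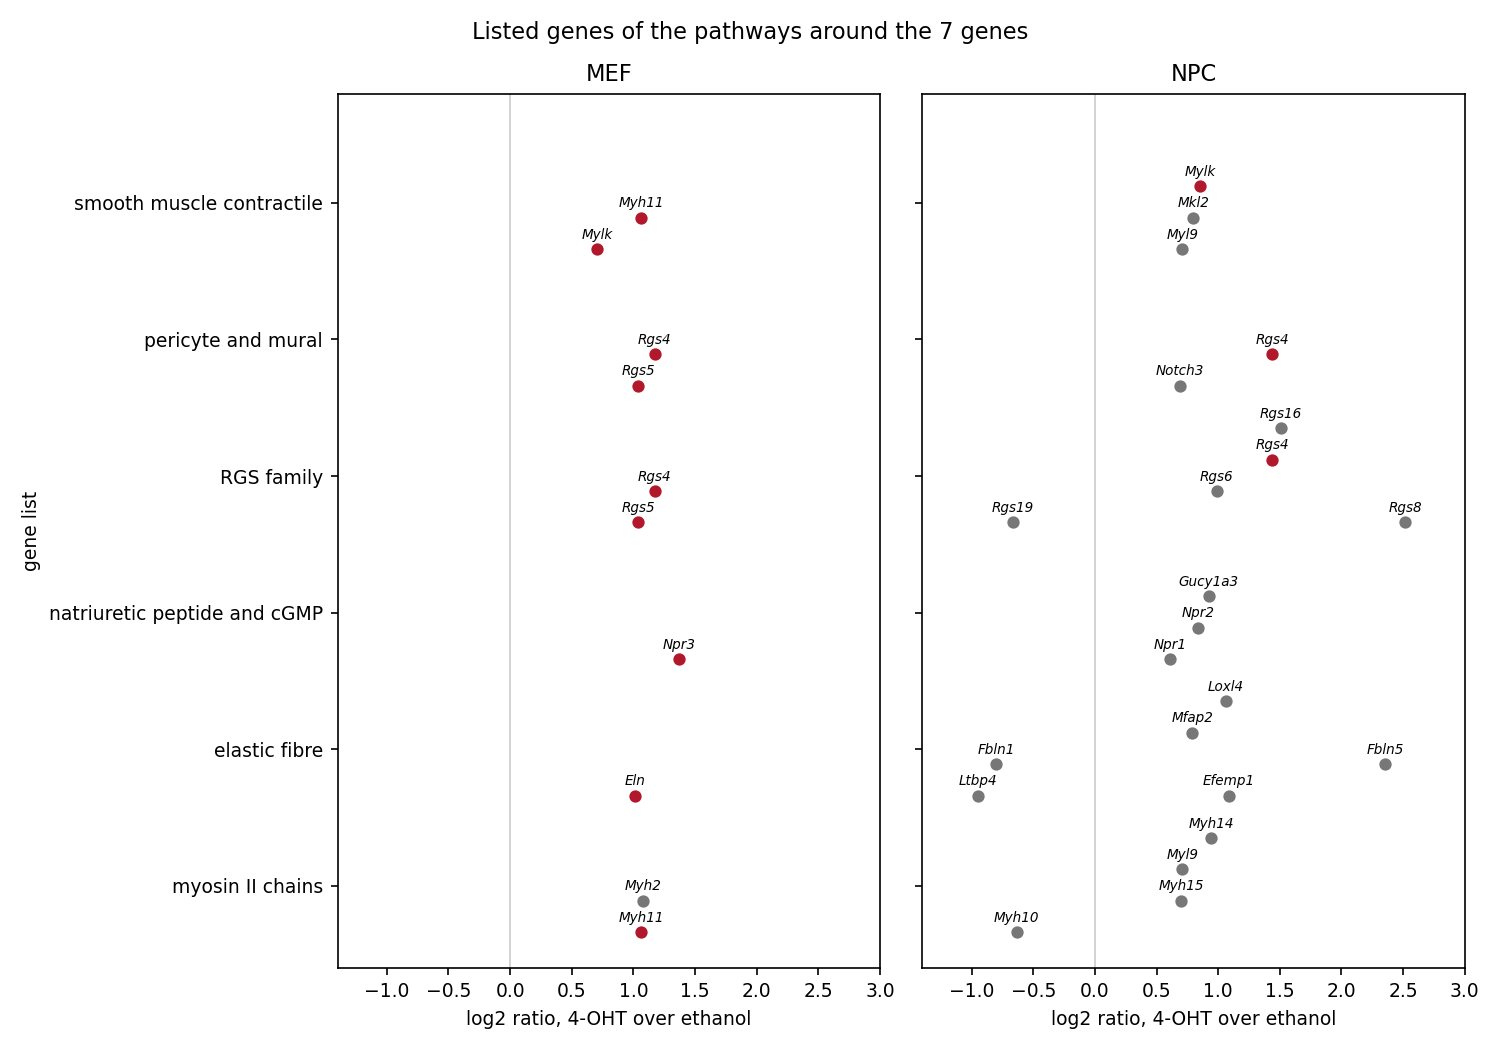
Log2 ratio of 4-OHT over ethanol (x axis) of the listed genes on 6 pathway lists (rows) in MEF (left) and NPC (right), where red marks the 7 genes and grey the others; vertical offsets within a row only separate the names. MEF holds the 7 genes other than Limch1, which is on no list, plus Myh2, while NPC holds more genes, with Rgs19, Fbln1, Ltbp4 and Myh10 below 0.

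None of the 7 genes had a listed splicing event in either cell type, where 60 genes in MEF and 222 in NPC had one. These counts are small beside 21900 RefSeq protein-coding genes, so the lack of events is not read as a result about the 7 genes. Events are listed for an unadjusted p under 0.05 and a difference over 0.2 in inclusion level, so smaller changes are not shown. Of the genes on the lists, Rgs7 alone had an event, a 54 bp cassette exon in NPC at chr1:177006955-177007008 (mm9). Its inclusion level was 0.242 with 4-OHT and 0.48 with ethanol under one replicate code of the table, and 0.182 with 4-OHT and 0.41 with ethanol under another. These levels rest on 62 and 125 reads with 4-OHT and on 56 and 153 reads with ethanol. The table has 3 such codes, which match no sample label, so which libraries stand behind each is unknown. Both codes went the same way, and the event is not listed under the third, so no test over 3 libraries was made.

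The gene-level values pool transcript forms. Mylk has 2 coding GENCODE transcripts of 1620 and 7824 nt, Rgs5 2 of 723 and 4096 nt and Limch1 8 of 520 to 5903 nt, so which form carried the change is not shown. The library kit does not mark strand, and 3 of the genes overlap exons of genes on the opposite strand. The largest shared length is 548 nt in Mylk (4.87% of its exonic bases, with E130310I04Rik), 321 nt in Npr3 (3.42%) and 267 nt in Eln (3.30%), while Myh11, Limch1, Rgs4 and Rgs5 share none.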

How the data were processed

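RNA from 12 libraries was made with the TruSeq RNA kit v2, per the labels. Reads were base-called with CASAVA 1.8 and mapped by TopHat2 2.03 (Bowtie2 2.0.0.6; build mm9), and Cuffdiff 2.02 was used, per the submitters' processing notes. The deposited expression tables give 1 RPKM per arm and an unadjusted p-value, per the file headers. For splicing, the deposited columns hold, per the file headers, a count of inclusion and of exclusion reads in each arm, the inclusion level as a fraction, and a p-value. A replicate code, which matches no sample label, goes with each entry. The names of the splicing tables point to MATS, with no version or settings given.

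From these, log2 ratios of 4-OHT over ethanol were computed without a pseudocount. The highest value that a Benjamini-Hochberg adjusted p could have took all 55341 GENCODE gene names as tested, and was tested on simulated data. With 1 value per arm, no test over libraries of expression was possible. The 7 genes, the 11 gene lists, and the rules were chosen with earlier results of these data known. An item on these lists is not reported here and is left out of their counts. Named genes are the 7, Prmt5, the nearest gene to each, and listed genes of each list. Alternatives were the candidates for the nearest gene, pseudocounts, minimum RPKM, a stricter p and a larger ratio. Promoter windows come from RefSeq (GRCm38.p6), gene structures from GENCODE M21. Whether replicates came from different cultures or embryos is not in the labels, so the authors' p-values may measure technical spread. Python 3.11.15 and pandas 2.3.3 were used.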

Additional observations from a re-analysis of the deposited data

How the results depend on the processing

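A pseudocount added to both arms cannot change the direction of a ratio, only its size. The median log2 ratio in MEF was 1.02 with a pseudocount of 0.1 RPKM and 0.98 with 1 RPKM, and in NPC 0.80 and 0.51. Rgs4 in NPC moved most, to 0.98 and 0.26, and is the one gene of the 3 under 1 RPKM in both arms. With p under 0.01 in the authors' deposited tables, 3 of the 7 genes were left in MEF, and with a log2 ratio of at least 1, 1 of 3 was left in NPC. Of the 1 further pathway gene counted in MEF, 0 had a p under 0.01 and 1 a log2 ratio of at least 1, and 5 of 19 in NPC had an absolute log2 ratio of at least 1. For Rgs7 the mean difference in inclusion level of 4-OHT minus ethanol was -0.233 over the 2 listed codes, which had to differ by over 0.2 to be listed. The deposited replicate code, which matches no sample label, was also taken as a replicate block. This exact sign-flip test gave p = 0.5, the smallest that 2 pairs allow, so it could not decide whether the level changed. No paired analysis of expression was possible because the tables give 1 value per arm, which also prevents leaving out a library. Over the MEF arms alone, with all genes listed there as candidates (chosen after seeing the data), Mylk was nearest to Ptprd (distance 0.091) and Limch1 to Parm1 (0.20), Eln and Rgs4 changed as given above, and the nearest genes of Myh11, Rgs5 and Npr3 were the same. Depth is unknown for the RPKM values.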
